A study of Homo sapiens with 8 samples.

Results

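The BTG and TOB antiproliferative genes were examined in IMR90, a human lung fibroblast line, during activation of p53 by Nutlin-3a. The members were BTG1, BTG2, BTG3, TOB1 and TOB2, taken by their symbols, and all 5 were found among the 18216 genes listed and passed the filter on low values. BTG2 rose 17.8- to 20.2-fold and TOB1 1.84- to 2.12-fold over the 3 exposure times. BTG1 rose slightly at 6 h and was not called later, BTG3 was lower at each time, and TOB2 did not pass the test in any comparison. The sixth human family member, BTG4, was listed at 1.95 to 5.73 normalized counts per library, near the floor of 3 reads, and was not tested.

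The study compared 3 Nutlin-3a groups, exposed to 3 µg/mL for 6, 9 or 12 h, with 1 DMSO group, and each group had 2 libraries. Nutlin-3a occupies the p53 pocket of MDM2, the ubiquitin ligase that holds p53 low, and DMSO is its solvent. All cultures were IMR90 at passage 28 in low oxygen, treated 1 day after splitting, with no engineered allele named in the labels, and polyA RNA was sequenced with a directional kit. The sources do not say how long DMSO cultures were kept or whether replicates were separate cultures, so p-values measure the spread between these libraries, which may be technical. The 3 comparisons with DMSO share the same 2 control libraries.

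BTG and TOB proteins share an N-terminal BTG domain that binds CNOT7 and CNOT8, the CAF1-type nuclease subunits of the CCR4-NOT complex, which shortens mRNA poly(A) tails. They have been described as adaptors that bring this complex to poly(A)-binding proteins and so speed deadenylation, and overexpression of most members slows growth in culture. BTG2 is a long-known p53 target gene, and TOB1 and TOB2 carry a long C-terminal tail that binds PABPC1.

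The promoter sequence of the members is shown because the 2 genes that rose most, BTG2 and TOB1, and the gene that rose briefly, BTG1, can be set side by side. RefSeq gave 6 windows for the 5 members, 1 each and 2 for TOB1, and each window here is the 250 bases before the annotated start, written 5′ to 3′ on the gene's strand in build GRCh38.p14. These coordinates are not those of hg19, the build of the deposited counts. Capitals mark exact matches, on either strand, to GGGCGG (the core of a GC box), CCAAT and TATAAA, and none of these matches overlapped another. GENCODE v29 puts the starts of BTG1 and BTG2 a little further upstream, inside their windows, and a start of TOB1 upstream of the first TOB1 window.
BTG2, chr1:203305269-203305518, plus strand: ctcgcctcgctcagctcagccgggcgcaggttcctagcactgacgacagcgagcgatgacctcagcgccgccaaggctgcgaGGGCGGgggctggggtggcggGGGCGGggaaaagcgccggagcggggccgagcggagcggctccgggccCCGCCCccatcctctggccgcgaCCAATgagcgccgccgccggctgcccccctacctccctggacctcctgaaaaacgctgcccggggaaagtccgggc
TOB1, chr17:50866355-50866604, minus strand: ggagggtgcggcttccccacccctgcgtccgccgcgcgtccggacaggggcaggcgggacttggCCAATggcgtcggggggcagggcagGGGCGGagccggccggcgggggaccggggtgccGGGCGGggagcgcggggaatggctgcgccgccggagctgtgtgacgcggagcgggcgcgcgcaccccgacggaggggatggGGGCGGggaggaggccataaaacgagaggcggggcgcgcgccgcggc
TOB1, upstream start, chr17:50867979-50868228, minus strand: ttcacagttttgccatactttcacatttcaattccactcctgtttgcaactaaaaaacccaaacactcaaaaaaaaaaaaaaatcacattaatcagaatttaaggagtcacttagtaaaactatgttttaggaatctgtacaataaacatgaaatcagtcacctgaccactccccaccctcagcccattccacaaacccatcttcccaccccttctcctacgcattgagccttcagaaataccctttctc
BTG1, chr12:92145847-92146096, minus strand: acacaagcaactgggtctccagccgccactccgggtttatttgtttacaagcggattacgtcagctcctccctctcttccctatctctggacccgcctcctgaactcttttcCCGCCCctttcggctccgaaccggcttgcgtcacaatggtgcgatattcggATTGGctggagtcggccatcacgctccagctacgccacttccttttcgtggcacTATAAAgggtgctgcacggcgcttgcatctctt
The BTG2 window was 74.8% G and C and held 3 GGGCGG matches and 1 CCAAT match. The first TOB1 window was 80.4% G and C, also with 3 GGGCGG matches and 1 CCAAT match, whereas the upstream TOB1 window was 38.4% G and C and held none of the 3 motifs. The BTG1 window alone among the 6 held TATAAA, at 33 to 28 bases before the start, beside 1 GGGCGG and 1 CCAAT match, and was 56.4% G and C. The windows of BTG3 and TOB2, not printed, were 78.4% and 68.4% G and C and held 2 GGGCGG matches each. Over all 35114 RefSeq windows of the same length, 42.6% held GGGCGG, 32.0% CCAAT and 10.7% TATAAA, and the median G and C content was 58.0%. An exact match to the p53 consensus half-site was found in 0 of the 6 windows and in 5.57% of all windows, which says only that these letters are not in these stretches.

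Normalized counts, which are reads per gene scaled by library size factors as deposited, were compared within a gene. Log2 changes are on the scale log2(normalized count + 1), with the standard error after ±, and were tested by limma with Benjamini-Hochberg adjustment over all 14074 genes tested at a threshold of 0.05. Genes past it are described as having risen or fallen.

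BTG2 had normalized counts of 2572 and 2483 at 6 h of Nutlin-3a, 2372 and 2541 at 9 h, and 2225 and 2220 at 12 h, against 127 and 121 in the DMSO libraries. Every Nutlin-3a library was above both DMSO libraries, and the spread within each pair was small beside that gap. The DMSO values rest on 130 and 113 reads, so that the low level itself is known less closely than the high ones. BTG2 rose by 4.34 ± 0.06 at 6 h, a 20.2-fold change with a 95% interval of 18.5- to 22.0-fold (adjusted p = 1.97e-21). The change was 4.29 ± 0.06 at 9 h, or 19.6-fold (adjusted p = 3.57e-21), and 4.15 ± 0.06 at 12 h, or 17.8-fold (adjusted p = 6.93e-21). Ranked from the top by log2 change, BTG2 stood at place 2, 2 and 4 among the genes tested at 6, 9 and 12 h.

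TOB1 had normalized counts of 1037 and 1048 at 6 h, 1076 and 1145 at 9 h, and 1192 and 1205 at 12 h of Nutlin-3a, against 599 and 534 in the DMSO libraries. The 3 Nutlin-3a pairs did not overlap the DMSO pair or one another. TOB1 rose by 0.88 ± 0.07 at 6 h, or 1.84-fold (adjusted p = 2.31e-09), by 0.97 ± 0.07 at 9 h, or 1.96-fold (adjusted p = 2.89e-10), and by 1.08 ± 0.07 at 12 h, or 2.12-fold (adjusted p = 3.85e-11). Its place from the top was 376, 265 and 215. In GENCODE the antisense gene TOB1-AS1 overlaps TOB1 on the other strand. TOB1-AS1 was listed at 2.46 to 11.9 normalized counts over the 6 Nutlin-3a libraries and at 1.95 and 3.22 in the DMSO libraries, and it did not pass the test at any time. Whether counting used the strand is not stated in the labels, so reads of this pair might not have been told apart.

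BTG1, a relative of BTG2 by sequence, had normalized counts of 2285 and 2283 at 6 h, 1906 and 1827 at 9 h, and 1715 and 1938 at 12 h of Nutlin-3a, against 1803 and 2043 in the DMSO libraries. The 6 h pair was above every other library, while the 9 h and 12 h pairs overlapped the DMSO pair. BTG1 rose by 0.25 ± 0.07 at 6 h, or 1.19-fold (adjusted p = 0.00483). Its log2 change was -0.04 ± 0.07 at 9 h (adjusted p = 0.673, 95% interval -0.18 to 0.10) and -0.07 ± 0.07 at 12 h (adjusted p = 0.394, interval -0.21 to 0.06). The call at 6 h was lost when the fit used no intensity trend (adjusted p = 0.0849, with adjusted p from 1.20e-06 to 0.0849 over the alternatives). Without DMSO replicate 1 the change at 12 h was -0.16 and passed the test (adjusted p = 0.0198, with a range of 0.0198 to 0.921).

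BTG3, which has also been reported as a p53 target and as a partner of E2F1, had normalized counts of 1247 and 1319 at 6 h, 1085 and 1224 at 9 h, and 1226 and 1215 at 12 h of Nutlin-3a, against 1381 and 1561 in the DMSO libraries. Every Nutlin-3a library was below both DMSO libraries. BTG3 fell by 0.19 ± 0.07 at 6 h (adjusted p = 0.0333), by 0.35 ± 0.07 at 9 h (adjusted p = 0.000494) and by 0.27 ± 0.07 at 12 h (adjusted p = 0.00435). These are levels of 0.874, 0.785 and 0.831 of DMSO. The call at 6 h was lost under 11 of 21 alternatives, among them the authors' deposited table, which gives an adjusted p of 0.0736, against a range of 0.000335 to 0.228 over the alternatives. Without DMSO replicate 2 the change at 6 h was -0.11, and the call at 12 h was lost when the fit used no intensity trend.

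TOB2, the closest relative of TOB1, had normalized counts of 1574 and 1659 at 6 h, 1657 and 1639 at 9 h, and 1773 and 1695 at 12 h of Nutlin-3a, against 1773 and 1653 in the DMSO libraries. The Nutlin-3a pair overlapped the DMSO pair at every time. Its log2 change was -0.08 ± 0.06 at 6 h (adjusted p = 0.278, 95% interval -0.20 to 0.04), -0.06 ± 0.06 at 9 h (adjusted p = 0.492, interval -0.17 to 0.06) and 0.02 ± 0.06 at 12 h (adjusted p = 0.831, interval -0.10 to 0.14). TOB2P1, a processed pseudogene of TOB2 whose reads could be exchanged with those of its parent, was listed at 58.5 to 80.7 normalized counts in the Nutlin-3a libraries and at 40.8 and 61.6 in the DMSO libraries. It rose by 0.57 ± 0.21 at 6 h (adjusted p = 0.0354) and did not pass at 9 h or 12 h, and the authors' deposited table gives it a log2 change of 0.55 at 6 h that did not pass (adjusted p = 0.185).

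**Figure D1:**
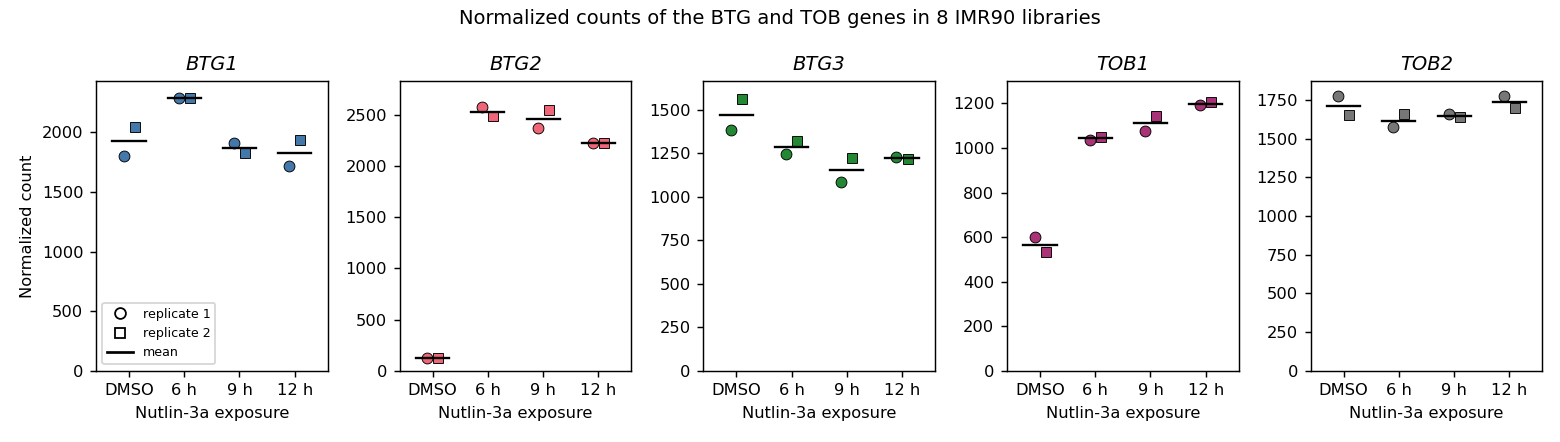
Normalized counts of each member (y axis, from 0, scaled per gene) in every library, by group on the x axis; circles are replicate 1, squares replicate 2 and bars the mean of 2. The 6 Nutlin-3a libraries of BTG2 sit between 2220 and 2572, far above the DMSO libraries at 127 and 121. The TOB1 means climb with exposure, though no step between neighbouring Nutlin-3a times was called. Each Nutlin-3a pair of TOB2 overlaps its DMSO pair.

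At 6 h against DMSO 4 of the 5 members passed the test, 3 upward and 1 downward, where 36.7% of all genes tested did, 16.1% upward and 20.6% downward. At 9 h 3 of 5 passed, 2 upward and 1 downward, beside 35.3% of all genes, 16.2% upward and 19.1% downward. At 12 h 3 of 5 passed, again 2 upward and 1 downward, beside 39.9% of all genes, 18.5% upward and 21.4% downward. That split over all genes at 12 h, 2603 that rose and 3007 that fell, became 3369 and 2482 with quantile normalization, which changed no call of a member at 12 h against DMSO. At 6 h the pairs of 3 members lay above the DMSO pair and that of 1 below it, as 29% and 33.7% of all genes did. At 9 h and at 12 h 2 members lay above and 1 below, beside 32.2% and 31.9% of all genes at 9 h and 33.6% and 33.5% at 12 h. With 5 members these counts were not tested against the background. At 6 h the log2 change of BTG2 exceeded that of 99.99% of genes tested, and the log2 change of TOB1 that of 97.3%. The median log2 change of all genes tested was -0.01 at 6 h and 0.01 at 9 h and 12 h. Over the 4 groups together, an F test in the same fit passed for 4 members, all but TOB2 (adjusted p = 0.366), beside 49.9% of all genes.

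**Figure D2:**
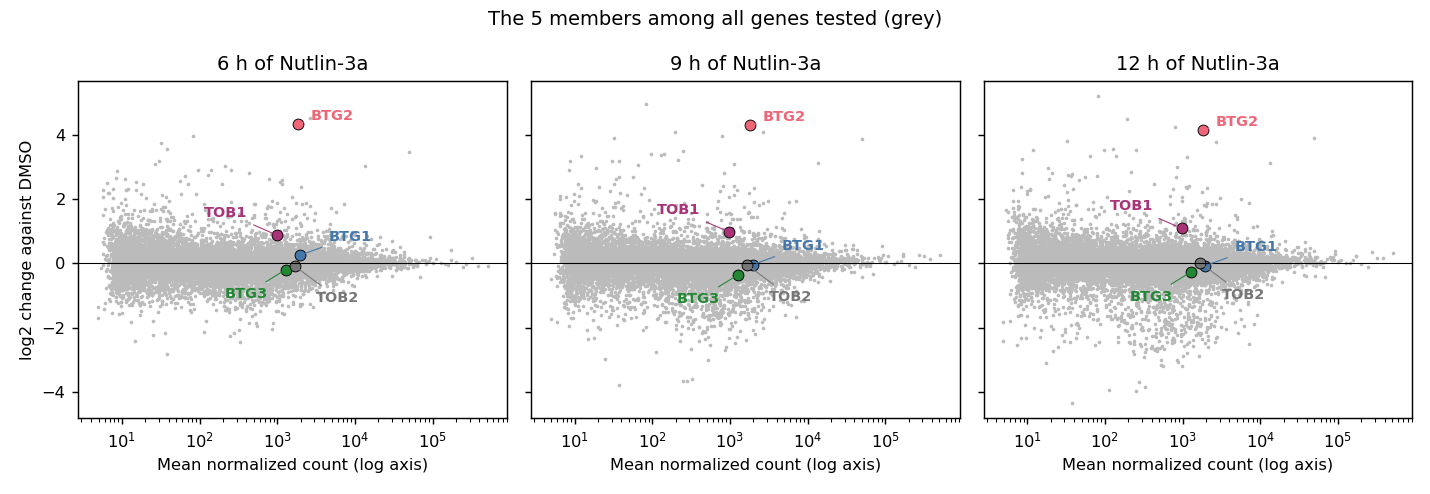
Log2 change against DMSO (y axis) over the mean normalized count on a log axis (x axis) at 6, 9 and 12 h, with all 14074 genes tested in grey and the 5 members in colour. BTG2 lies at the top edge of the cloud at each time, TOB1 above most genes of its level, and BTG1, BTG3 and TOB2 within the dense band around 0.

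The exposure times were also compared with each other in the same fit. The labels name no DMSO group matched to each time, so exposure and time in culture cannot be told apart here. At 9 h against 6 h, BTG1 fell by 0.29 ± 0.07 (adjusted p = 0.00327), with counts of 1906 and 1827 at 9 h against 2285 and 2283 at 6 h. It was the single member called, beside 18.4% of all genes, 8.52% upward and 9.9% downward. The call was lost without 9 h replicate 2 (-0.26, adjusted p = 0.0620) or with no intensity trend (adjusted p = 0.0974), where adjusted p ranged from 5.88e-07 to 0.0974. The pairs of BTG1 and BTG3 lay below their 6 h pairs and that of TOB1 above, as 30.4% and 30.3% of all genes did. BTG3 was lower at 9 h by a log2 change of -0.15 ± 0.07 that missed the threshold (adjusted p = 0.137) and passed it in 3 of 20 alternatives, without DMSO replicate 1, without DMSO replicate 2 or with only the 2 groups in the fit.

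At 12 h against 9 h limma called 0 of 5 members, and edgeR and DESeq2 on recovered reads also called 0, beside 4% of all genes, 1.08% upward and 2.92% downward. Without adjustment limma's test passed 0.05 for 1 member, BTG2, with counts of 2225 and 2220 at 12 h against 2372 and 2541 at 9 h and a log2 change of -0.14 ± 0.06 (adjusted p = 0.256). The BTG2 pair lay below its 9 h pair and the TOB1 and TOB2 pairs above, as 27.2% and 22.6% of all genes did. At 12 h against 6 h 3 of 5 members passed, 1 upward and 2 downward, beside 31.5% of all genes, 14.4% upward and 17.1% downward. BTG1 fell by 0.33 ± 0.07 (adjusted p = 0.000655) and BTG2 fell by 0.19 ± 0.06 (adjusted p = 0.0243), while TOB1 rose by 0.20 ± 0.07 (adjusted p = 0.0276). The 12 h pairs of TOB1 and TOB2 lay above the 6 h pairs and those of the other 3 below, as 32.4% and 34.2% of all genes did. The BTG2 and TOB1 calls were lost when any 1 of the 4 libraries of the 6 h and 12 h groups was left out, with changes of -0.21 to -0.16 for BTG2 and 0.19 to 0.21 for TOB1. Over the alternatives adjusted p ranged from 0.000455 to 0.169 for BTG2 and from 0.00191 to 0.144 for TOB1.

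**Figure D3:**
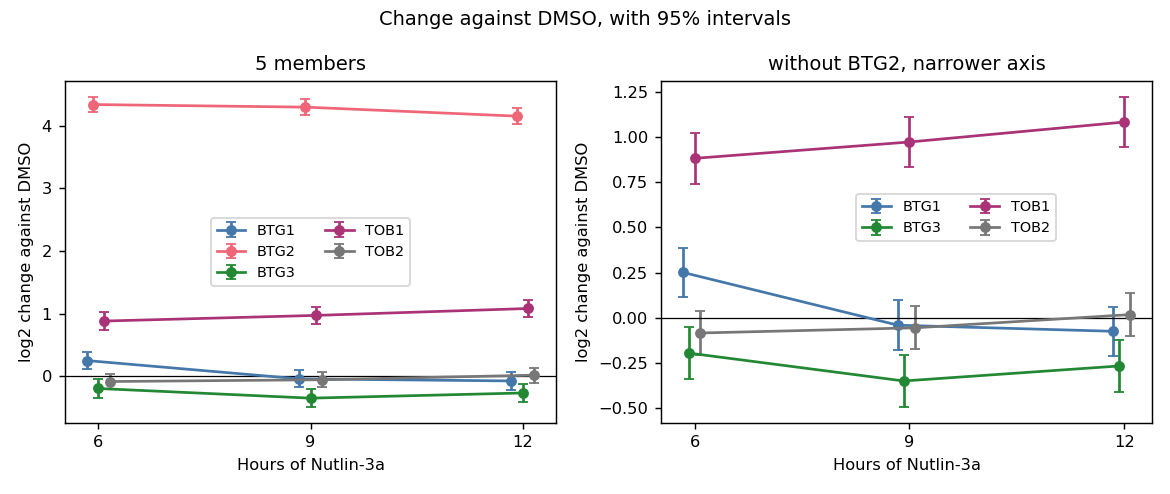
Log2 change against DMSO (y axis) by hours of Nutlin-3a (x axis) with 95% intervals from the fit of 8 libraries, for the 5 members at left and without BTG2 on a narrower axis at right. TOB1 is at 0.88 at 6 h, 0.97 at 9 h and 1.08 at 12 h, BTG1 is above 0 at 6 h only, and BTG3 lies below 0 at each time.

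To set members beside each other, normalized counts were divided by the length of the longest principal GENCODE v29 transcript, 4680 bases for BTG1, 2712 for BTG2, 1456 for BTG3, 2229 for TOB1 and 4561 for TOB2. On this scale of normalized count per kb, BTG2 averaged 932 ± 23 at 6 h, 906 ± 44 at 9 h and 819.3 ± 1.3 at 12 h of Nutlin-3a, against 45.8 ± 1.5 in DMSO libraries (SD, n = 2 each). BTG3 averaged 881 ± 35, 793 ± 67 and 838 ± 5.2 per kb at 6, 9 and 12 h, against 1010 ± 87 in DMSO libraries. BTG2 was thus first or second of the 5 in Nutlin-3a libraries and the lowest in DMSO libraries.

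The order from the top was BTG2, BTG3, BTG1, TOB1, TOB2 at 6 h and BTG2, BTG3, TOB1, BTG1, TOB2 at 9 h. At 12 h it was BTG3, BTG2, TOB1, BTG1, TOB2, and in DMSO libraries BTG3, BTG1, TOB2, TOB1, BTG2. The neighbours BTG1 and TOB2 overlapped between libraries at 12 h, with 367 to 414 and 372 to 389 per kb, and in DMSO libraries, with 385 to 437 and 362 to 389 per kb. BTG2 and BTG3 differed little at 12 h, at 818 to 820 and 835 to 842 per kb, and these ranges overlapped when the longest protein-coding transcript of BTG3 was used. With the shorter principal TOB1 transcript of 1467 bases, a setting chosen after seeing the data, TOB1 took the third place by mean in every group. Its libraries then overlapped those of BTG2 at 12 h, at 812 to 821 per kb. In DMSO libraries TOB1 was at 364 to 408 per kb and overlapped both BTG1 and TOB2.

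BTG2 made up 29.8%, 30.6% and 27.6% of the summed per-kb level of the 5 genes at 6, 9 and 12 h, against 2.19% in DMSO libraries. TOB1 made up 15.0%, 16.8% and 18.1%, against 12.2% in DMSO libraries, and BTG3 28.2%, 26.8% and 28.3%, against 48.1%. A share depends on the levels of all 5 genes, and BTG3 itself was at 881, 793 and 838 per kb, against 1010 in DMSO libraries. The sum itself was 3123 ± 28 per kb at 6 h, 2957 ± 118 at 9 h and 2966 ± 19 at 12 h, against 2097 ± 83 in DMSO libraries (SD, n = 2 each), and these groups did not overlap the DMSO group. Within this sum BTG2 was at 932, 906 and 819 per kb, against 45.8 in DMSO libraries.

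**Figure D4:**
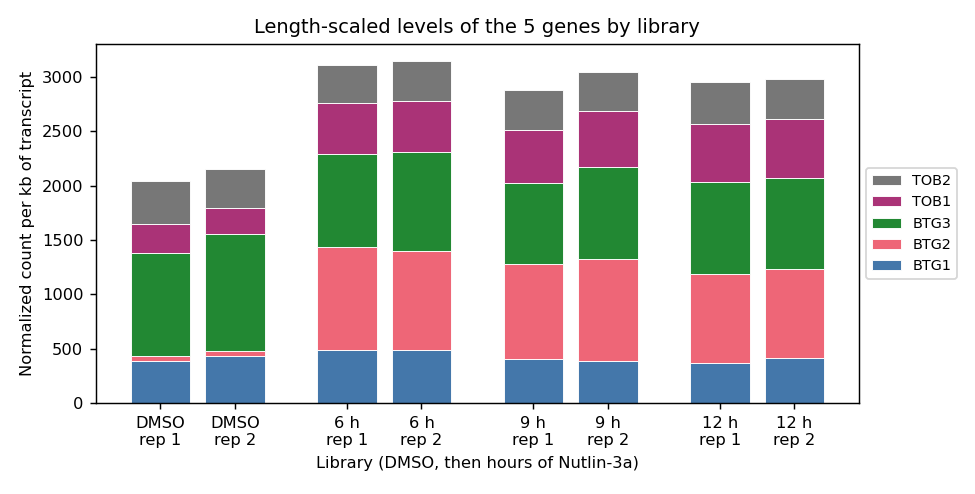
Normalized count per kb of transcript (y axis, stacked from 0) of the 5 members in each library (x axis), with the longest principal transcript as length. The BTG2 block is a thin band in DMSO libraries and 27.6% or more of the mean bar at each Nutlin-3a time, and the whole bar stands at 2874 to 3144 in Nutlin-3a libraries, against 2038 and 2155 in DMSO libraries.

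Across the 8 libraries, which share the 4 groups and are therefore not independent points, BTG2 and TOB1 had a Pearson r of 0.97 on the log2 scale, and BTG3 had r = -0.81 with BTG2 and -0.83 with TOB1. These values take in the step between DMSO and Nutlin-3a, and between 6 h and 12 h BTG2 and TOB1 changed in opposite directions, as given above. BTG1 and TOB2 had r = -0.74. Among 11460 other genes with a mean normalized count of at least 50, the 3 whose pattern was most like BTG2 were SESN1, ZNF79 and TNFRSF10B, with r = 0.999, 0.999 and 0.998, and their log2 changes at 6 h were 2.46, 1.20 and 1.85. Those most like TOB1 were DUBR (r = 0.995), PDCD6IP (r = 0.994) and WDR63 (r = 0.994), whose log2 changes at 12 h, 0.83, 0.21 and 3.53, differed widely in size. BTG1 was most like GRPEL1, ZC2HC1A and UBE2Q2 (r = 0.98, 0.97 and 0.97), BTG3 most like ZNF670, IPO11 and PPA1 (r = 0.97, 0.96 and 0.96), and TOB2 most like SNRNP35, GRB2 and ZNF358 (r = 0.96, 0.95 and 0.95). By Spearman's rank correlation, with ties ordered by Pearson r, only ZNF670 and SNRNP35 stayed among the 3 nearest of their member. Counting themselves, 11 and 4 genes had a Spearman value at or above theirs, so that the order of ties decided their places. For SESN1, ZNF79 and TNFRSF10B beside BTG2 the same counts were 197, 197 and 1952, at Spearman values of 0.90, 0.90 and 0.5.

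The proteins that BTG and TOB members bind, and the decay steps downstream of them, were described from gene lists. Of 12 genes of the CCR4-NOT complex, 2 rose and 5 fell at 6 h, 1 rose and 6 fell at 9 h, and 1 rose and 7 fell at 12 h. Over all genes tested 16.1%, 16.2% and 18.5% rose and 20.6%, 19.1% and 21.4% fell at 6, 9 and 12 h. The list's median log2 change was -0.17, -0.15 and -0.22, beside medians of -0.01, 0.01 and 0.01 over all genes. CNOT7, one of the nucleases that the BTG domain binds, had a mean normalized count of 2697 ± 18 at 6 h, 2499 ± 87 at 9 h and 2408 ± 33 at 12 h, against 2843 ± 183 in DMSO libraries (SD, n = 2 each). It fell by 0.18 ± 0.05 at 9 h (adjusted p = 0.0108) and by 0.24 ± 0.05 at 12 h (adjusted p = 0.00137), and its change of -0.07 at 6 h was not called. CNOT8, the other such nuclease, rose by 0.21 ± 0.06 at 6 h (adjusted p = 0.0121) and was at 0.03 and 0.01, not called, at 9 h and 12 h. CNOT10 fell by 0.53, 0.64 and 0.65 and CNOT9 fell by 0.47, 0.48 and 0.55 at 6, 9 and 12 h, and CNOT1, the scaffold of the complex, fell by 0.22, 0.27 and 0.34. TNKS1BP1, a protein found with the complex, rose by 0.34, 0.14 and 0.21. CNOT7 and CNOT8 are named for their binding to the members, a choice made after their values were seen.

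Of 8 further deadenylase genes, 3 fell at 6 h, 2 at 9 h and 3 at 12 h, beside 20.6%, 19.1% and 21.4% of all genes, with medians of -0.02, -0.07 and -0.14. The rest did not pass the test. TOE1, a nuclear deadenylase, had 183.5 and 206 normalized counts at 6 h, 153 and 206 at 9 h and 139 and 165 at 12 h, lowest and highest of each pair, against 306 and 358 in DMSO libraries. It fell by 0.76 ± 0.14, 0.89 ± 0.14 and 1.12 ± 0.14 (adjusted p = 0.000154, 2.43e-05 and 1.10e-06). PARN, which trims poly(A) tails of many non-coding RNAs, fell by 0.22, 0.23 and 0.18, and PAN3 fell by 0.25 at 12 h, while its catalytic partner PAN2 was at -0.16 and was not called.

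Of 15 genes for proteins that bind poly(A) or mRNA 3′ ends, 5 rose and 3 fell at 6 h, and 3 rose and 3 fell at both later times, with medians of 0.04, -0.09 and -0.01. Of all genes 16.1% rose and 20.6% fell at 6 h, 16.2% and 19.1% at 9 h, and 18.5% and 21.4% at 12 h. CPEB2, a cytoplasmic polyadenylation element binding protein, rose by 0.66, 0.66 and 0.76, each ± 0.08, and its relative CPEB4 rose by 0.61, 0.43 and 0.38, each ± 0.06. PABPC1, the main cytoplasmic poly(A)-binding protein and the partner of the TOB tail, fell by 0.20, 0.19 and 0.17, each ± 0.05, and PABPC4 fell by 0.25 at 9 h and 0.24 at 12 h. PUM2, a repressor that binds mRNA 3′ ends, fell by 0.25, 0.22 and 0.37. PABPC1 was likewise singled out after its values were seen, for its role as partner.

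Decapping and decay from the 5′ end follow deadenylation. Of 15 such genes 1 rose and 3 fell at 6 h, and 1 rose and 8 fell at 9 h and at 12 h, with medians of -0.09, -0.14 and -0.19. The shares of all genes that fell were 20.6%, 19.1% and 21.4%, and those that rose 16.1%, 16.2% and 18.5%. At 12 h LSM6 fell by 0.69 ± 0.10, DCP2, the decapping enzyme, by 0.59 ± 0.09, and PATL1, which links deadenylation to decapping, by 0.49 ± 0.07. DCP1B, a cofactor of DCP2, rose at each time, by 0.35, 0.62 and 0.47.

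TOB proteins also bind SMAD transcription factors of the bone morphogenetic protein pathway. Of 6 SMAD genes 1 rose and 2 fell at 6 h and at 9 h, and 3 fell at 12 h while the other 3 were not called, with medians of -0.11, -0.06 and -0.11. Among all genes 16.1%, 16.2% and 18.5% rose and 20.6%, 19.1% and 21.4% fell at these times. SMAD1 fell by 0.44, 0.47 and 0.49 and SMAD9 by 0.35, 0.31 and 0.23, both signal-carrying SMADs of this pathway. SMAD5, also signal-carrying in this pathway, had log2 changes of 0.11, 0.06 and 0.0004 at 6, 9 and 12 h, none of them called. SMAD5 is named for this role, a choice made after its values were seen. The inhibitory SMAD7 rose at 6 h (0.47) and 9 h (0.21), with a change of 0.13 at 12 h that was not called, and SMAD6, also inhibitory, fell by 0.23 at 12 h.

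**Figure D5:**
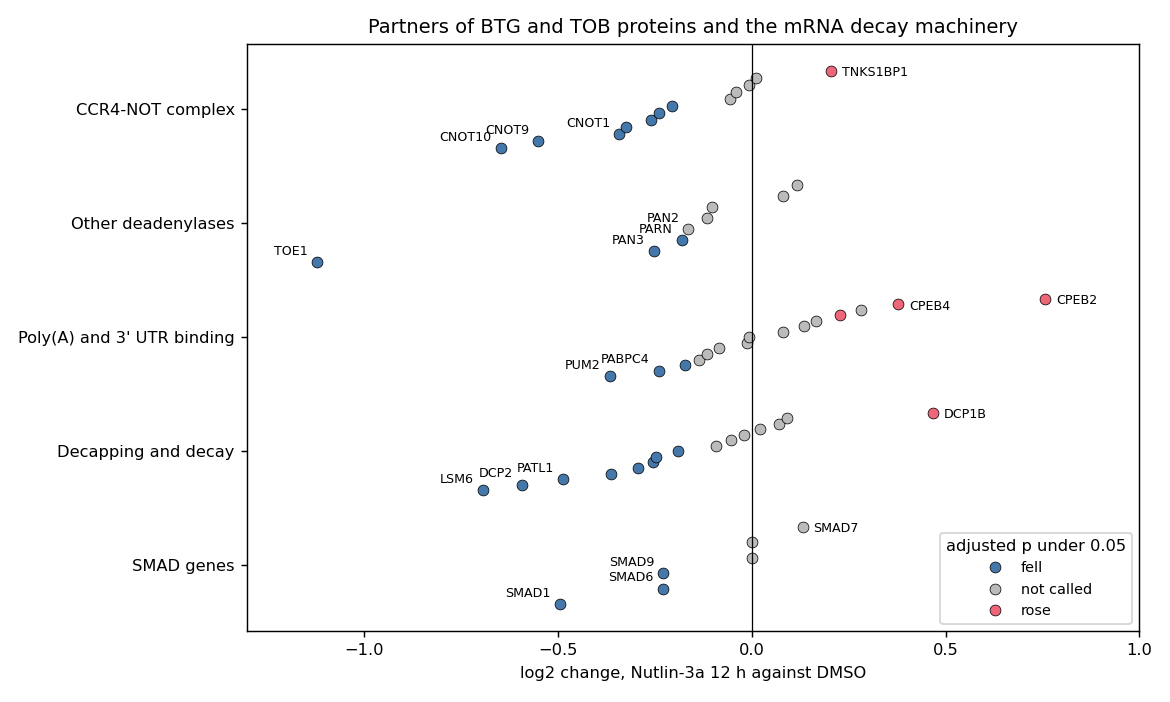
Log2 change at 12 h of Nutlin-3a against DMSO (x axis) of each gene in 5 lists of partners and decay factors (y axis, with genes spread within a list by rank), coloured by the call at an adjusted p under 0.05. In the CCR4-NOT list 7 genes lie left of 0 with a call and 1, TNKS1BP1, right of it, and TOE1 is the gene farthest left at -1.12.

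Further partners and regulators are given singly, and HOXB9 was too low to test. CDKN1A, the p53 target that encodes the inhibitor p21, rose by 3.47, 3.85 and 3.90, each ± 0.04, and MDM2, also a p53 target, rose by 3.03, 3.10 and 3.13, each ± 0.06, as a check of the treatment. CDKN1A thus had a smaller log2 change than BTG2 at each time, a comparison of values that was not tested. PRMT1, an arginine methyltransferase that BTG1 and BTG2 bind, also named after its values were seen, fell by 0.20 and 0.15 at 6 h and 9 h and was at -0.11, not called, at 12 h. CCND1, the cyclin D1 gene, reported to be repressed when BTG2 or TOB1 is overexpressed, rose by 0.12, 0.24 and 0.38.

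Gene reads per library ranged from 21.9 M to 33.6 M. The 2 DMSO libraries were farther apart than any Nutlin-3a pair, with a standard deviation of the log2 difference over genes of 0.17, against 0.12 to 0.13 in the 3 Nutlin-3a pairs. Fibroblast markers were listed for 12 of 12 genes, and collagen genes made up most of their summed normalized counts. The sums were 1214070 to 1241100 at 6 h, 1412920 to 1413160 at 9 h and 1424660 to 1455820 at 12 h, against 1217910 and 1220550 in DMSO libraries. At 12 h 6 of these 12 genes rose, beside 18.5% of all genes. PDGFRA and THY1 fell, by 0.44 and 0.13, where 21.4% of all genes fell. Markers of other cell types differed in level: over all libraries CDH1 was at 0.996 to 3.75, CDH5 at 0 to 6.55 and PTPRC at 0.914 to 5.77 normalized counts, EPCAM at 17.3 to 28.9, VWF at 11.5 to 42.3, and TEK at 1396 to 2019. Summed epithelial markers, 6 of 9 listed and mostly KRT18, were at 3431 to 3589 at 6 h, 2947 to 2978 at 9 h and 2460 to 2581 at 12 h, against 2721 and 2804 in DMSO libraries. Summed endothelial markers, 6 of 7 listed and mostly TEK, were at 1958 to 2049, 1645 to 1752 and 1507 to 1566, against 2030 and 2168. Immune markers, 5 of 7 listed and mostly CD68, summed to 762 to 872 at 6 h, 933 to 993 at 9 h and 913 to 964 at 12 h, against 748 and 905. Smooth muscle and pericyte markers, 8 of 8 listed, summed to 32676 to 33156, 34396 to 34700 and 33324 to 34365, against 28853 and 30284. Of these 8 genes CSPG4 and NOTCH3 rose at 12 h, by 0.57 and 0.34, CNN1 fell by 0.28 and the other 5 were not called. The part of these shifts in the results above was not tested. In bulk RNA, fewer cells of a type and less RNA per cell cannot be told apart.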

How the data were processed

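PolyA RNA of 8 IMR90 libraries was sequenced, 2 for each of 3 Nutlin-3a exposures and 2 for DMSO. The submitters' processing notes name STAR, DESeq2 and build hg19 without versions. Which counter, strand option and annotation were used is not given in the sources used here. As deposited, the signal table holds normalized counts (reads per gene over library size factors), beside the authors' own DESeq2 tests with log2 fold changes, a Wald score, p-values and adjusted p-values. Their fold changes put DMSO on top and are given here with the opposite sign. Entries for ambiguous, unannotated and multiply aligned reads, 28.2 to 29.1% of each library, were left out.

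Whole reads were recovered in 100% of values within a tolerance of 1e-06, and 3 reads, the floor, equal 2.46 to 3.75 normalized counts. This floor covers counting error only. limma 3.58.1 with an intensity trend (R 4.3.3) was fitted to log2(normalized count + 1), which understates changes of low genes, with every library in 1 fit (4 residual degrees of freedom, 15.5 prior), on 14074 genes with at least 10 in at least 2 libraries. With 2 libraries a group, an exact permutation test of 1 gene cannot go below p = 0.333. The alternatives were other pseudocounts, filters and scalings, no trend, 2 groups at a time, group weights, a replicate block, edgeR 4.0.16 and DESeq2 1.42.0 on recovered reads, the authors' deposited tests, and leaving out each library. The script was tested on simulated data first.

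The members and gene lists were chosen with earlier results of these data known. In each list the text names the 4 genes or fewer of lowest p at 12 h against DMSO and no more than 2 called against the list's majority, beside the genes it says were added. One gene of the list of further partners and regulators, and the counts over that list, are not reported here. Promoter sequences are from RefSeq, matched by symbol for 5 of 5 members, and transcript lengths from GENCODE v29.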

Additional observations from a re-analysis of the deposited data

Results flagged for a closer look

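The level of 3 members differed between the Nutlin-3a exposure times, by the test between those times in the fit of all 8 libraries. The log2 change of BTG1 was lower at 9 h than at 6 h (a difference of -0.29, adjusted p = 0.00327) and lower at 12 h than at 6 h (-0.33, adjusted p = 0.000655). That of BTG2 was lower at 12 h than at 6 h (-0.19, adjusted p = 0.0243), and that of TOB1 was higher at 12 h than at 6 h (0.20, adjusted p = 0.0276). In each case both libraries of the later time lay on one side of both libraries of 6 h. Of all genes, 30.4% lay below in this way at 9 h against 6 h, and 34.2% below and 32.4% above at 12 h against 6 h. The test passed for 18.4% of all genes at 9 h against 6 h and for 31.5% at 12 h against 6 h. The calls of BTG2 and TOB1, and that of BTG1 at 9 h against 6 h, were lost with no intensity trend. Each time was measured against the same 2 DMSO libraries, which cancel in the differences between times. No DMSO group matched to each time is named in the labels. Exposure to Nutlin-3a and time in culture therefore cannot be told apart in these differences.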

How the results depend on the processing

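Of 615 values of members recomputed under the alternatives, 583 kept their direction and their side of the threshold, 27 lost their call, 5 gained one and 0 reversed. A further 11 values changed sign while uncalled throughout. BTG2 and TOB1 against DMSO and BTG3 at 9 h kept their calls in all alternatives run. At 6 h BTG3 was not called with quantile normalization (-0.15), with no intensity trend, only the 2 groups compared, group weights, DESeq2 on recovered reads or the authors' deposited tests (-0.19 in each), and ranged from -0.28 to -0.11 with 1 library left out. With no intensity trend the calls of BTG1 at 6 h (0.25), BTG3 at 12 h (-0.27), BTG1 at 9 h against 6 h (-0.29), and BTG2 (-0.19) and TOB1 (0.20) at 12 h against 6 h were also lost, leaving 2 members called at 6 h against DMSO, 0 at 9 h against 6 h and 1 at 12 h against 6 h. At 12 h against 6 h, BTG2 was also lost with quantile normalization (-0.16) and TOB1 with DESeq2 (0.20). With only the 2 groups compared, 2 members passed at 9 h against 6 h, BTG3 (-0.15) among them, and 1 at 12 h against 9 h, BTG2 (-0.14). Leaving out 1 library gave -0.16 to 0.016 for BTG1 at 12 h, -0.32 to -0.26 and -0.24 to -0.067 for BTG1 and BTG3 at 9 h against 6 h, with 0 to 2 members called, and -0.21 to -0.16 and 0.19 to 0.21 for BTG2 and TOB1 at 12 h against 6 h, with 1 to 3 called. The cause was not tested.

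Deviations of same-numbered libraries from their group means correlated at -0.15 to 0.09 over the 6 pairs of groups. No strong pairing by replicate number was seen, and a weak one would not be seen this way. A fit with the replicate block changed no call of a member, with 4, 3 and 3 called at 6, 9 and 12 h and BTG3 at -0.19 at 6 h (adjusted p = 0.0198, within 0.000335 to 0.228 over the alternatives).

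At 12 h against 9 h 152 of all genes rose and 411 fell: 30 and 144 with no trend, 530 and 857 with only 2 groups, 428 and 812 with group weights, and 42 to 446 and 213 to 825 with 1 library left out. At 9 h against 6 h, 1199 rose and 1393 fell, against 597 and 740 with no trend, 786 that rose with DESeq2, and 579 to 1894 and 761 to 2042 with 1 library left out. Leaving out 1 library also lowered the number that rose to 1494, 1419 and 1699 at 6, 9 and 12 h against DMSO, from 2263, 2273 and 2603, and to 1249 at 12 h against 6 h, from 2031. On recovered reads edgeR called 2383, 2547 and 3006 genes that rose and 2702, 2558 and 2817 that fell at 6, 9 and 12 h against DMSO. No other scaling moved the median change of all genes by more than 0.05. Depth limits BTG4, near the floor of 3 reads, and TOB1-AS1, at 1.95 to 11.9 normalized counts.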
